A study of Rattus norvegicus with 20 samples.

Results

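The uncoupling proteins Ucp2 and Ucp3 were followed in heart ventricles of 20 male Sprague Dawley rats. Both genes were chosen by their Ensembl IDs, ENSRNOG00000017854 for Ucp2 and ENSRNOG00000017716 for Ucp3, so they make up 2 of the 24059 gene IDs in the table. The rats fall into 4 groups of 5, with 1 library per rat: control and diabetic WT rats, and control and diabetic Vegfb KO rats. All were labelled 9 weeks old. Vegfb KO rats lack Vegfb in every tissue, because zinc-finger nucleases were used to put a reporter gene into the Vegfb gene. Diabetes was brought about by 55 mg/kg of streptozotocin (STZ) given intravenously, and the hearts of these rats were taken on day 4 of diabetes. STZ is a toxin that kills the insulin-producing beta cells of the pancreas, so these rats are a model of acute insulin lack and not of long-standing or type II diabetes. No table at hand pairs Ensembl IDs with gene names. The names Ucp2 and Ucp3 therefore rest on the stated ID pairs, and neither the count of Vegfb itself nor markers of heart muscle and other cell types could be looked up.

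Ucp2 and Ucp3 are carriers of the inner mitochondrial membrane, related to the uncoupling protein that lets brown fat make heat. Ucp3 is made mainly in skeletal muscle, brown fat and heart, and its mRNA is known to follow fatty acid supply, as in fasting. Ucp2 is made in many tissues and cell types, immune cells and pancreatic beta cells included, and it carries metabolites across the inner membrane. The comparisons ask how the mRNA of each carrier stood in the diabetic heart, and whether loss of Vegfb, a growth factor linked to fatty acid handling by the heart, went with a different level.

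The genes are neighbours on rat chromosome 1. In the RefSeq annotation of the GRCr8 assembly both lie on the plus strand in the order C2cd3, Ucp3, Ucp2, Dnajb13 among protein-coding genes, with 0 other protein-coding genes listed between Ucp3 and Ucp2. The 250 bases before each start site are shown because the genes are adjacent and their mean levels were higher in diabetic hearts, for Ucp2 without a call in either genotype alone; both symbols were matched in the RefSeq promoter table. Capitals mark AGGTCA or its reverse complement, the core motif that many nuclear receptors recognise. The Ucp3 sequence lies at chr1:164227660-164227909 and the Ucp2 sequence at chr1:164251123-164251372, both in GRCr8 and on the plus strand.
Ucp3: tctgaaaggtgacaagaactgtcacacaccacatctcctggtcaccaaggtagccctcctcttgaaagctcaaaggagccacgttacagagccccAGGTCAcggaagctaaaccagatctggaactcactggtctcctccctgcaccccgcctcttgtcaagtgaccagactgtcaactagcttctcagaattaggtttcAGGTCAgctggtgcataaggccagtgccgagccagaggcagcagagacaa
Ucp2: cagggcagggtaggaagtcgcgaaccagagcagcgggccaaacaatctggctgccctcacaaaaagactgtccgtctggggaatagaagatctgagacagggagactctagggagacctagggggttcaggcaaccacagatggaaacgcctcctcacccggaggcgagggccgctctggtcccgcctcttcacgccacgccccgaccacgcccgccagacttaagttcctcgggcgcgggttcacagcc
The Ucp3 sequence holds 2 matches to AGGTCA on either strand, which begin 155 and 50 bases before the start site, and the Ucp2 sequence holds 0. Of 33469 rat promoters of the same length, 14.1% hold at least 1 match and 1.27% hold 2 or more. A match is only a run of letters, and no binding was measured in these hearts.

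Another 5 motifs were searched on both strands, 1 of which contains AGGTCA. The direct repeat AGGTCANAGGTCA was in neither sequence and in 0.0508% of promoters. The E-box CANNTG had 2 matches for Ucp3 and 1 for Ucp2, and 65.5% of promoters hold it. The GC box GGGCGG had 0 matches in both, while 30.5% of promoters hold it. The TATA box TATAAA, held by 12.9%, and the CCAAT box, held by 34%, had 0 matches as well. Base composition also set the promoters apart. The Ucp2 sequence was 62.8% G or C with 17 CpG dinucleotides, and the Ucp3 sequence 53.6% with 4, beside medians of 51.2% and 5 over all promoters. Thus 78.1% of promoters had fewer CpG than Ucp2 and 37.4% had fewer than Ucp3.

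The deposited values are estimated counts per gene, and levels are given as CPM, counts scaled to a common library size, scaled between libraries by the trimmed mean of M values (TMM). Totals ranged from 7.31 M to 26.7 M in control and 12.97 M to 23.4 M in diabetic hearts of WT rats, and from 18.3 M to 24.4 M in control and 7.22 M to 21.9 M in diabetic hearts of Vegfb KO rats. A single gene ID, ENSRNOG00000065867, took 23.4% of the count in WT diabetic rat 2 and 25.5% in Vegfb KO diabetic rat 1, and at most 5.28% in any other library. It was singled out after its values were seen. Ucp2 and Ucp3 both passed the filter on low counts, as did 14293 gene IDs in all. Counts depend on transcript length, so a level, or a ratio of both genes, is compared between rats, and nothing is read from which gene has more counts.

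Ucp3 was higher in diabetic than in control hearts of WT rats. Ucp3 in WT control rats 1 to 5 was 14.6, 14.9, 7.02, 6.43 and 5.08 CPM. In WT diabetic rats 1 to 5 it was 36.9, 26.0, 42.4, 35.6 and 29.7 CPM. Every WT diabetic heart lay above every WT control heart. Among all genes tested, 4.04% were separated in this direction without overlap. The lowest diabetic value (rat 2) was 26.0 CPM and the highest control value (rat 2) 14.9 CPM. Without TMM scaling the gap between the same rats was smaller, at 19.0 and 15.3 CPM. In the 10 WT rats the means were 9.62 ± 4.76 CPM (SD, n = 5) in control and 34.1 ± 6.41 CPM (SD, n = 5) in diabetic hearts. The log2 fold change was 1.88 (SE 0.33, 95% interval 1.19 to 2.58), a 3.69-fold rise.

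This rise passed edgeR's quasi-likelihood test after Benjamini-Hochberg adjustment over all genes tested (adjusted p = 0.000855). A gene was called where that adjusted p was under 0.05 and the log2 fold change above 0.27 in size. In the WT hearts 13.1% of genes were called and 6.06% were called and higher, and Ucp3 ranked 76 of 14293 by the size of its log2 fold change. The size of the rise was thus near the top of the table, while its p ranked 395, and Ucp3 varied between rats of a group more than most genes did. In bulk tissue, a change in the share of cells that make Ucp3 and a change in Ucp3 mRNA per cell cannot be told apart.

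In Vegfb KO hearts the Ucp3 groups overlapped. Ucp3 in Vegfb KO control rats 1 to 5 was 14.6, 13.2, 11.0, 16.1 and 24.2 CPM. In Vegfb KO diabetic rats 1 to 5 it was 46.6, 42.8, 32.3, 21.2 and 18.9 CPM. Of the 5 diabetic hearts 3 lay above every control heart, and rats 4 and 5 lay below control rat 5, which had the highest control value. All 5 were above the control median. A gap without overlap in this direction was seen for 3.46% of genes. In the 10 Vegfb KO rats the means were 15.8 ± 5.08 CPM (SD, n = 5) in control and 32.3 ± 12.4 CPM (SD, n = 5) in diabetic hearts, with a log2 fold change of 1.00 (SE 0.31, 95% interval 0.34 to 1.67).

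The Vegfb KO difference, 2.00-fold, missed the threshold by edgeR's quasi-likelihood test, Benjamini-Hochberg adjusted (adjusted p = 0.0606), in a comparison where 7.84% of genes were called (1121, or 643 without Vegfb KO diabetic rat 3). It was past the threshold under DESeq2 (log2 fold change 1.03, adjusted p = 0.0244) and edgeR's likelihood ratio test (1.03, adjusted p = 0.0211); over all 12 alternatives without single rats left out, adjusted p lay between 0.0211 and 0.163. With edgeR's quasi-likelihood test it was also past the threshold without Vegfb KO control rat 5 (1.21, adjusted p = 0.0351), Vegfb KO diabetic rat 4 (1.13, adjusted p = 0.048) or rat 5 (1.16, adjusted p = 0.0304). The same held in that test without WT control rat 1 (1.01, adjusted p = 0.0464) or rat 5 (1.00, adjusted p = 0.0493). Neither rat is in this comparison, but all libraries share the filter, scaling, spread and adjustment over genes. Which of these moved the call was not tested. Without WT diabetic rat 2 and Vegfb KO diabetic rat 1, the libraries with a large share on 1 ID, edgeR's quasi-likelihood test gave 1.96 in WT (adjusted p = 0.00134) and 0.86 in Vegfb KO (adjusted p = 0.125).

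**Figure D1:**
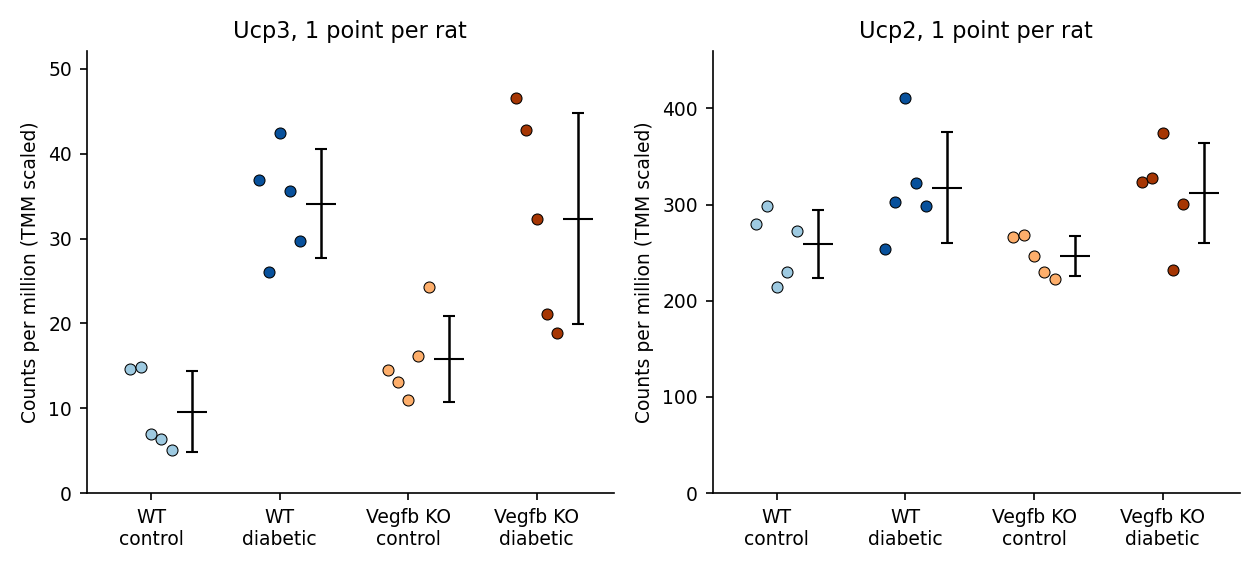
TMM-scaled CPM of Ucp3 (left) and Ucp2 (right), 1 point per rat in the 4 groups of 5, with the mean and SD as a bar at the right of each group; both axes start at 0. The 5 WT diabetic hearts sit between 26.0 and 42.4 CPM of Ucp3, all above the WT control hearts; diabetic and control hearts overlap for Ucp3 in Vegfb KO and for Ucp2 in both genotypes.

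A smaller fold in Vegfb KO than in WT does not by itself show that the responses differ, so the difference was tested as an interaction. For Ucp3 the interaction was -0.88 on the log2 scale (SE 0.45, 95% interval -1.83 to 0.07), with an unadjusted p of 0.0669 and an adjusted p of 1 by edgeR's quasi-likelihood test, Benjamini-Hochberg adjusted. No gene passed this test, so 0% of genes were called (0 also with DESeq2 and with the likelihood ratio test), and 600 had an unadjusted p under 0.05. The interval runs from a much smaller response in Vegfb KO hearts to a response of about equal size. With 5 rats per group, a difference between the genotypes in the Ucp3 response did not pass the test. Without WT diabetic rat 2 and Vegfb KO diabetic rat 1 the interaction was -1.11, with an unadjusted p of 0.0323 and an adjusted p of 0.81 by the same edgeR test.

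The genotypes were then compared within each state. Among control hearts, all 5 Vegfb KO rats had more Ucp3 than the WT median, and 2 of them lay above the highest WT rat. The log2 fold change of Vegfb KO over WT control hearts was 0.77 (95% interval 0.08 to 1.47), with an unadjusted p of 0.0312 but an adjusted p of 1 by edgeR's quasi-likelihood test, Benjamini-Hochberg adjusted. Only 0.028% of genes were called in this comparison, and all 4 of them were lower in Vegfb KO. In diabetic hearts the Ucp3 log2 fold change of Vegfb KO over WT was -0.11 (95% interval -0.75 to 0.54, adjusted p = 0.962 by edgeR's quasi-likelihood test, Benjamini-Hochberg adjusted). There 0.042% of genes were called, 6 in number, against 65 with DESeq2 and 181 without WT diabetic rat 3. This difference was negative under all 12 alternatives, from -0.33 without WT diabetic rat 2 and Vegfb KO diabetic rat 1 to -0.083. Its sign turned without Vegfb KO diabetic rat 4 (0.0091) or rat 5 (0.038).

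By mean level, Ucp3 was lowest in WT control hearts, followed by Vegfb KO control hearts, and then by the diabetic hearts of both genotypes, whose order turned with the rats left out above. Each step between neighbours in this order failed the adjusted test, while WT control and WT diabetic hearts differed.

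As a share of the group mean, Ucp2 values varied less between rats than Ucp3 values, though only slightly less in WT diabetic hearts. Ucp2 in WT control rats 1 to 5 was 280.0, 298.8, 214.7, 229.4 and 273.0 CPM. In WT diabetic rats 1 to 5 it was 254.0, 302.3, 410.6, 322.6 and 298.9 CPM. Of the 5 diabetic hearts 4 exceeded the highest control heart, rat 5 by a narrow margin, and rat 1 fell within the control range. The means were 259 ± 35.6 CPM (SD, n = 5) in control and 318 ± 57.7 CPM (SD, n = 5) in diabetic hearts. The log2 fold change in WT was 0.29 (SE 0.12, 95% interval 0.04 to 0.55, adjusted p = 0.119 by edgeR's quasi-likelihood test, Benjamini-Hochberg adjusted), so Ucp2 was not called. It was 0.19 without WT diabetic rat 3 (edgeR adjusted p = 0.289), the lowest of the 20 fits with 1 library left out, whose highest was 0.37.

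Vegfb KO hearts gave a like picture for Ucp2. In Vegfb KO control rats 1 to 5 it was 266.5, 268.2, 246.5, 229.5 and 222.3 CPM. In Vegfb KO diabetic rats 1 to 5 it was 323.7, 327.3, 374.8, 232.3 and 300.9 CPM. Here too 4 of the 5 diabetic hearts were above every control heart, and rat 4 lay inside the control range. The means were 247 ± 20.9 CPM (SD, n = 5) and 312 ± 52.0 CPM (SD, n = 5), with a log2 fold change of 0.34 (SE 0.12, 95% interval 0.08 to 0.59, adjusted p = 0.0971 by edgeR's quasi-likelihood test, Benjamini-Hochberg adjusted). Without Vegfb KO diabetic rat 4 this became 0.43 and was past the threshold by the same edgeR test (adjusted p = 0.0262), and over all 20 fits with 1 library left out the adjusted p ran from 0.0262 to 0.296.

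Averaging the diabetes response over both genotypes, a comparison added after the values were seen, uses all 20 rats. On this average Ucp2 was 1.25-fold higher in diabetic hearts (log2 fold change 0.32, SE 0.09, adjusted p = 0.00994 by edgeR's quasi-likelihood test, Benjamini-Hochberg adjusted). Ucp3 was 2.72-fold higher (1.44, SE 0.23, adjusted p = 0.000163 by the same edgeR test). Both were called, in a comparison where 16.2% of genes were, so a call for Ucp2 is a common outcome here, while only 0.441% of genes had a higher log2 fold change than Ucp3. The Ucp2 call was lost without WT diabetic rat 3, whose Ucp2 was the highest of all, because the log2 fold change of 0.267 then fell below the limit of 0.27 (edgeR adjusted p = 0.0175). It was also lost when libraries were scaled by their totals alone (0.30, edgeR adjusted p = 0.137). Without WT diabetic rat 2 and Vegfb KO diabetic rat 1 the log2 fold change of Ucp2 was 0.31 on average (edgeR adjusted p = 0.0221), and 0.31 in WT (adjusted p = 0.146) and 0.32 in Vegfb KO (adjusted p = 0.167) taken alone. Over the 11 alternatives the adjusted p ran from 0.00312 to 0.137, and over the 20 fits with 1 library left out from 0.00187 to 0.0246.

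Between the genotypes Ucp2 differed little in these hearts. The log2 fold change of Vegfb KO over WT was -0.07 in control (95% interval -0.33 to 0.18) and -0.03 in diabetic hearts (95% interval -0.28 to 0.23), and the interaction was 0.04 (95% interval -0.32 to 0.40). Adjusted p by edgeR's quasi-likelihood test, Benjamini-Hochberg adjusted was 1, 0.98 and 1. Each of these intervals was narrower than that of Ucp3 in the same comparison. In control hearts the value ran from -0.13 without WT control rat 3 to -0.016 without WT control rat 2, and it was -0.12 with counts thinned to the smallest total. The sign in diabetic hearts turned without WT diabetic rat 3 (0.075) or Vegfb KO diabetic rat 4 (0.057), and that of the interaction turned in 3 of the 20 fits with 1 library left out.

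**Figure D2:**
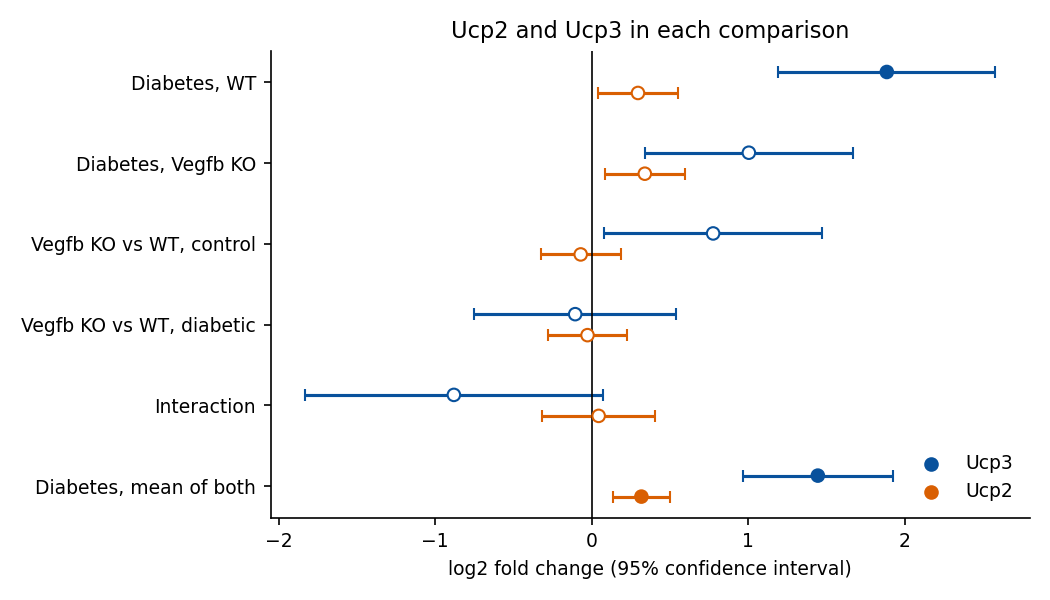
Log2 fold change with its 95% confidence interval for Ucp3 and Ucp2 in each comparison; filled points passed the thresholds for a call and open points did not, and the line at 0 marks equal levels. Ucp3 in WT stands at 1.88, and Ucp2 was called only for the mean of both genotypes, a comparison added after the values were seen.

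**Figure D3:**
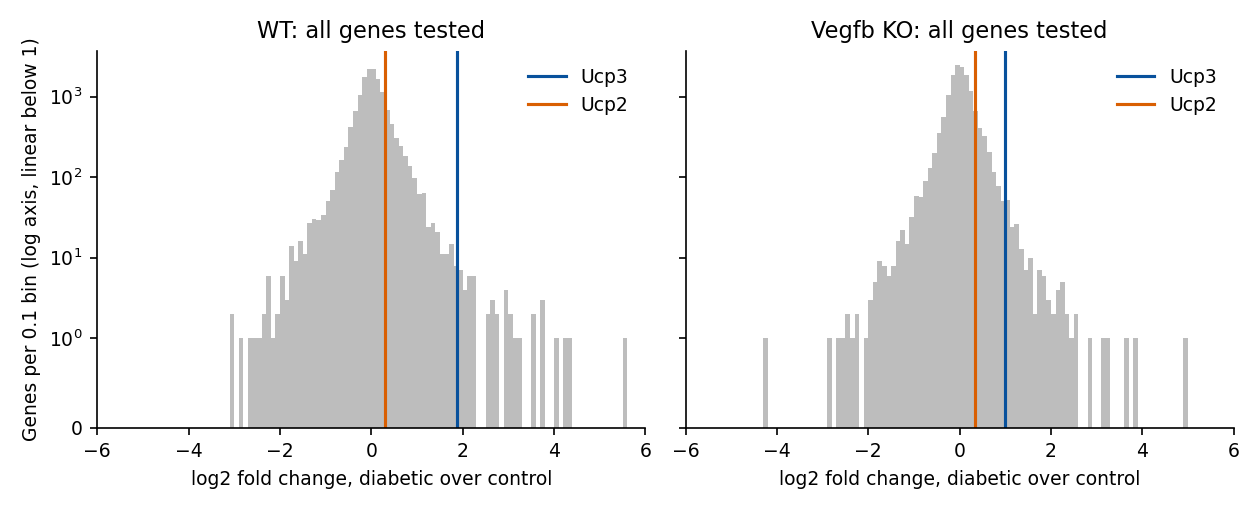
Number of genes per bin of log2 fold change, diabetic over control, on a log axis that is linear below 1, over 14293 genes in WT (left) and Vegfb KO (right), with Ucp3 and Ucp2 as vertical lines. A higher log2 fold change than that of Ucp3 was seen for 0.350% of genes in WT and 1.18% in Vegfb KO; for Ucp2 these shares were 17.1% and 12.0%.

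The plot of all genes shows how far each uncoupling protein stood from the bulk. The median gene had a log2 fold change of 0.01 with diabetes in WT and of 0.01 in Vegfb KO, and the central 90% of genes ran from -0.54 to 0.69 for WT and from -0.48 to 0.57 for Vegfb KO. Ucp3 was outside that range in both genotypes and Ucp2 inside it in both.

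Ucp3 also varied widely between rats of the same group. Its coefficient of variation (SD as a percent of the mean) was 49.5% in control and 18.8% in diabetic WT hearts, and 32.2% in control and 38.4% in diabetic Vegfb KO hearts. Counting error alone would give 9.17%, 3.83%, 6.21% and 4.84% in the median library of each group; separate animals differ beyond that floor in any case. In WT control hearts the highest rat had 2.93 times the Ucp3 of the lowest. Rats 1 and 2 of that group lay close together, and rats 3 to 5 lay lower.

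For Ucp2 the same coefficients were 13.7%, 18.1%, 8.47% and 16.7%, against counting errors of at most 2.48% in any library. The biological coefficient of variation fitted by edgeR over all groups was 14.3% for Ucp2 and 34.4% for Ucp3, beside a median of 13.4% over the genes tested. Ucp3 thus exceeded 91.1% of genes and Ucp2 55.0% in spread between rats.

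Dividing the counts within a library removes any scaling between libraries, since both genes share it. Per 100 estimated counts of Ucp2, WT control rats 1 to 5 had 5.24, 4.98, 3.26, 2.80 and 1.86 counts of Ucp3. WT diabetic rats 1 to 5 had 14.5, 8.62, 10.3, 11.0 and 9.93. The groups did not overlap, and the lowest diabetic heart was above the highest control heart. In Vegfb KO control rats 1 to 5 the ratio was 5.46, 4.90, 4.45, 7.03 and 10.9, and in Vegfb KO diabetic rats 1 to 5 it was 14.4, 13.1, 8.62, 9.09 and 6.29. Control rat 5, with the highest Ucp3 and the lowest Ucp2 of its group, had a higher ratio than 3 of the 5 diabetic hearts.

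The ratio was compared on a log2 scale with 0.5 added to each count, by exact 2-sided permutation tests of 5 rats against 5, adjusted over 4 comparisons. Diabetic and control hearts of WT rats differed by 1.66 (exact permutation p = 0.00794, the smallest that 5 rats against 5 allow; adjusted p = 0.0317 by Benjamini-Hochberg), a 3.16-fold higher ratio in diabetic hearts. In Vegfb KO the difference was 0.67 (exact permutation p = 0.0714, adjusted p = 0.0952). Between genotypes it was 0.87 for Vegfb KO over WT control hearts (exact permutation p = 0.0556, adjusted p = 0.0952) and -0.12 in diabetic hearts (exact permutation p = 0.643, adjusted p = 0.643). So the WT ratio passed the threshold and the other 3 comparisons did not. With any 1 WT rat left out, the WT difference still gave the smallest exact permutation p that 4 rats against 5 allow, 0.0159, which with the larger p values of the other 3 comparisons adjusted to 0.0635. Given those p values none of these fits could have passed, so they say nothing of stability.

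**Figure D4:**
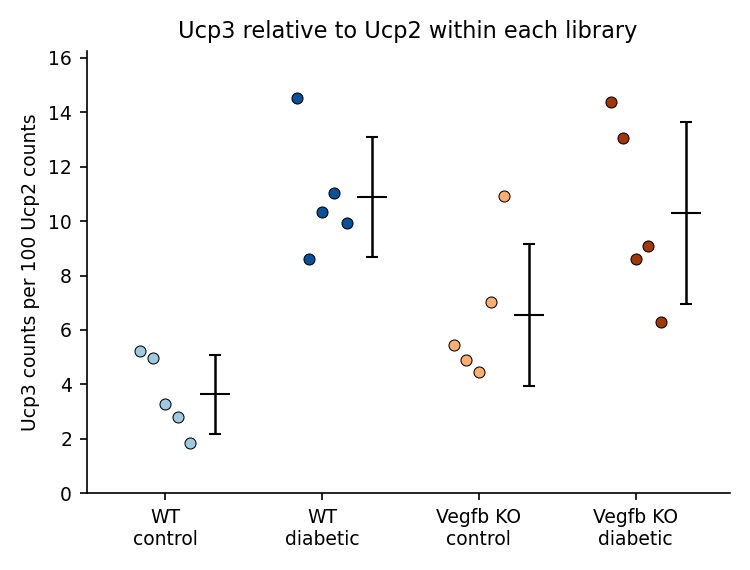
Estimated counts of Ucp3 per 100 estimated counts of Ucp2 in each library, 1 point per rat, with the group mean and SD at the right of each group and an axis that starts at 0. WT diabetic hearts lie between 8.62 and 14.5 and WT control hearts between 1.86 and 5.24, while the Vegfb KO groups overlap.

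Whether rats with more Ucp2 also had more Ucp3 was examined separately in control and diabetic rats, 2 relations of 10 rats each with WT and Vegfb KO together. In control rats Pearson's r of log2 CPM was 0.0720 (permutation p = 0.845, adjusted p = 0.845) and Spearman's rho 0.0546 (permutation p = 0.894, adjusted p = 0.894). In diabetic rats r was 0.511 (permutation p = 0.136, adjusted p = 0.271) and rho 0.576 (permutation p = 0.089, adjusted p = 0.178). Neither relation passed the test. The control value pools genotypes whose rats were placed differently: in WT the 2 rats with the most Ucp2 had the most Ucp3, and in Vegfb KO the 2 rats with the least Ucp2 had the most Ucp3. With 5 rats per genotype no r is given within them. Without the 2 rats farthest from the median of Ucp2, r was -0.269 in 8 control rats (exact permutation p = 0.514, adjusted p = 0.72) and 0.148 in 8 diabetic rats (exact permutation p = 0.72, adjusted p = 0.72). Spearman's rho was then -0.310 in control rats (exact permutation p = 0.462, adjusted p = 0.462) and 0.357 in diabetic rats (exact permutation p = 0.389, adjusted p = 0.462). Without WT diabetic rat 2 and Vegfb KO diabetic rat 1, r in the other 8 diabetic rats was 0.531 (exact permutation p = 0.176, adjusted p = 0.353).

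**Figure D5:**
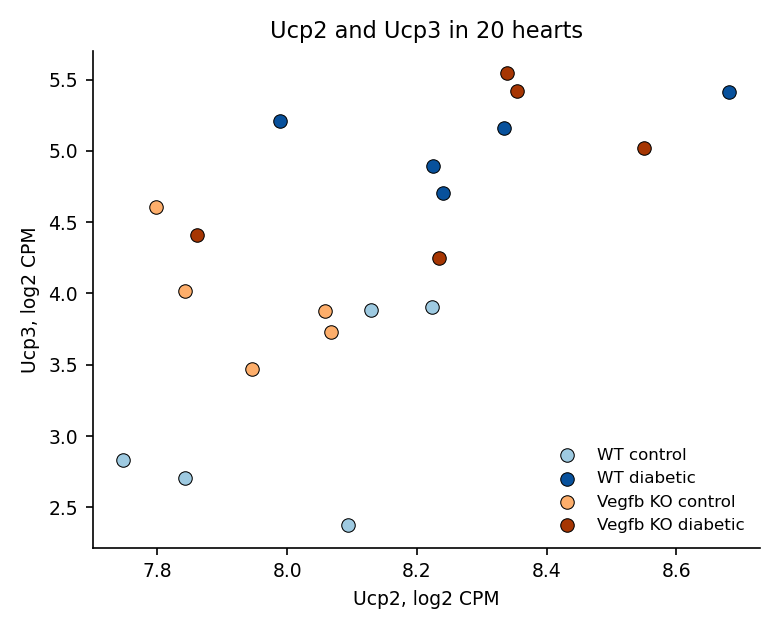
Ucp3 against Ucp2 in log2 CPM, 1 point per heart, coloured by group; neither axis starts at 0. Diabetic hearts lie toward higher Ucp3, and within the 10 control rats r was 0.0720 and within the 10 diabetic rats 0.511.

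Patterns like those of Ucp2 and Ucp3 were sought among 9893 gene IDs with a mean of at least 5 CPM, by Pearson's r of log2 CPM over all 20 libraries, differences between groups included. Closest to Ucp3 was ENSRNOG00000030225 (r = 0.877, and 0.445 once group means were taken out). Its level was 141 ± 5.02, 179 ± 3.71, 156 ± 8.63 and 180 ± 12.4 CPM (SD, n = 5 each) in WT control and WT diabetic, then Vegfb KO control and Vegfb KO diabetic hearts, the same low, high, intermediate and high pattern at a far smaller fold. Most opposed to Ucp3 was ENSRNOG00000010186 (r = -0.922, and -0.816 without group means), at 135 ± 8.78, 106 ± 5.65, 128 ± 10.2 and 105 ± 15.9 CPM (SD, n = 5 each) in the same order. In these libraries the opposition was also seen between rats of a group. The ID was picked for its r over the same libraries, so this is not separate evidence.

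For Ucp2 the closest ID was ENSRNOG00000014398 (r = 0.811, and 0.729 without group means), at 11.1 ± 1.91, 15.8 ± 2.29, 12.2 ± 2.00 and 15.5 ± 1.59 CPM (SD, n = 5 each). The most opposed was ENSRNOG00000030049 (r = -0.873, and -0.838 without group means), at 35.5 ± 3.79, 33.0 ± 2.83, 37.2 ± 3.39 and 31.3 ± 3.29 CPM (SD, n = 5 each). These are descriptions of the most extreme of 9893 values over the same 20 libraries and carry no test. Ucp3 itself was not the closest to Ucp2, as 1.43% of the IDs had a higher r to Ucp2 than Ucp3 had. In turn, 3.59% had a higher r to Ucp3 than Ucp2 had. The r between Ucp2 and Ucp3 over the 20 libraries was 0.618, differences between groups included.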

How the data were processed

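RNA from ventricles of 20 rats was sequenced as paired-end directional libraries. The authors deposited 1 table of estimated counts for Ensembl gene IDs, not scaled between libraries; the submitters' processing notes list kallisto, edgeR and DESeq2, without roles, and the build mRatBN 7.2. Such estimates divide reads between similar transcripts, and whether reads moved between the related genes Ucp2 and Ucp3 was not tested. Counts were rounded and analysed with edgeR 4.0.16 in R 4.3.3: filterByExpr by group, TMM and a quasi-likelihood fit with robust estimation to all 20 libraries with a mean per group, with Benjamini-Hochberg adjustment over all genes tested. Log2 CPM used a prior count of 2. Permutation tests used scipy 1.17.1, with 100000 resamples for 10 rats, and a 2-sided exact p was 2 times the smaller tail. Named genes were Ucp2, Ucp3 and the most alike and most opposed ID of each. Planned gene and cell type marker lists were not run, since 0 of 47357 RefSeq genes at hand carry an Ensembl ID. Alternatives were other scaling, filters and tests (DESeq2 1.42.0 among them), only the 10 libraries compared, a replicate block, thinned counts and left-out libraries. The code was tested on simulated data. Between libraries of a group counts differed beyond sampling noise (lowest chi-square per gene 5.98), and none was taken as a duplicate. The members and lists were chosen with earlier results of these data known.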

Additional observations from a re-analysis of the deposited data

Results flagged for a closer look

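Samples far from the rest of their group were sought in 20 sets of 5 values: CPM of Ucp2, CPM of Ucp3, their ratio, the total count and the share on ENSRNOG00000065867, each in 4 groups. Of these 3 had a rat set apart by Dixon's criterion. Chance gives about 1 in 20 sets, and the share on ENSRNOG00000065867 was added to the sets because its values had been seen to stand out, so its flags are descriptions. Among the WT diabetic libraries, rat 1 had the lowest total at 12.97 M estimated counts. The share of the count on ENSRNOG00000065867 was 23.35% in WT diabetic rat 2 and 25.46% in Vegfb KO diabetic rat 1, far above the other libraries of each group. None of the Ucp2, Ucp3 or ratio values was set apart from its group by this criterion.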

How the results depend on the processing

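The rise of Ucp3 in WT kept its direction and call under all 12 alternatives (log2 fold change 1.78 to 1.96) and with each library left out (1.71 to 2.15). Ucp3 in Vegfb KO stayed higher in diabetic hearts throughout and passed the threshold under DESeq2 (1.03) and the likelihood ratio test (1.03), and in 5 of the 20 fits with 1 library left out, which ranged from 0.86 to 1.21; the cause was not tested. Ucp2 in Vegfb KO ranged from 0.26 to 0.43 with 1 library left out. The mean of both genotypes was added after seeing the data, as were scaling by library totals alone and removal of ENSRNOG00000065867. For Ucp2 that mean lost its call with totals alone (0.30) and ranged from 0.27 to 0.37 with 1 library left out.

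With 1 library left out, differences that had not been called turned sign in a few fits. The Vegfb KO to WT difference in diabetic hearts ranged from -0.10 to 0.075 for Ucp2 and from -0.25 to 0.038 for Ucp3, and the Ucp2 interaction from -0.032 to 0.15. For the Ucp3 to Ucp2 ratio the difference in diabetic hearts ranged from -0.26 to 0.040, and it was -0.34 without both libraries rich in ENSRNOG00000065867. The WT ratio difference ranged from 1.44 to 1.82 and was 1.74 without both of those libraries; in each of these the exact permutation p was the smallest that 4 rats against 5 allow (0.0159), and with the larger p values of the other 3 comparisons it adjusted to 0.0635. In control rats r of Ucp2 with Ucp3 turned to -0.269 without the 2 rats farthest from the median.

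Shared replicate numbers were checked for pairing, and same-numbered rats deviated from their group means with correlations from -0.26 to 0.26. Between control and diabetic rats, same numbers averaged -0.045 (other numbers 0.011) in WT and 0.094 (other numbers -0.023) in Vegfb KO. Between genotypes they averaged 0.091 (other numbers -0.022) in control and -0.015 (other numbers 0.011) in diabetic rats. With 5 pairs each, these values cannot decide whether the numbers mark a pairing. Own numbers correlated best for 0, 2, 1 and 1 of 5 rats. The replicate block gave 1.95 for Ucp3 in WT and 0.94 in Vegfb KO and changed no Ucp2 or Ucp3 call.

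Counts of called genes moved by over 1.5 times in some settings. In WT 1876 genes were called, against 1189 with thinned counts and 687 with totals alone. In Vegfb KO 1121 were called, against 645 with thinned counts, 276 with totals alone (169 higher and 107 lower, in place of 519 and 602) and 643 without Vegfb KO diabetic rat 3. For the mean of both genotypes 2317 became 1427 with totals alone. Between genotypes in diabetic hearts 6 became 65 with DESeq2, 38 with the likelihood ratio test, 3 with only 10 libraries, 3 with totals alone, 181 without WT diabetic rat 3, and 2 or 3 in 12 other fits with 1 library left out. Groups of 5 are small, and how far group size limits these comparisons was not tested. With counts thinned to the smallest total the edgeR adjusted p of Ucp3 was 0.00371 in WT and 0.132 in Vegfb KO. That of Ucp2 was 0.157 in WT and 0.067 in Vegfb KO, against 0.119 and 0.0971 without thinning.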
